A study of Mus musculus with 58 samples.

Results

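Quant-seq, which counts the 3′ ends of polyadenylated RNA, was used to compare mES cells that lost DPY30 with control cells after 8 h of retinoic acid (RA). The comparison holds 4 libraries of the 22 Quant-seq libraries and of 58 libraries in the series, chosen by their labels alone: 2 of DPY30–mAID cells given auxin and RA, and 2 of the same cells given DMSO and RA. Both groups were E14 mES cells of the 129/Ola background and carried the mAID tag on both copies of Dpy30 together with a transfected OsTIR1, the plant protein that binds auxin and hands tagged proteins to the proteasome. RA was given at 1 µM in medium without LIF, so that levels at 8 h set against 0 h reflect both changes, which cannot be told apart. Sorted cells gave homozygous clones, and how many clones stand behind a library is not given in the sources used here. No library of untagged cells given auxin is analysed here, so that DPY30 loss and auxin itself cannot be told apart. DMSO libraries at 0 h served as the level before RA, and auxin and DMSO libraries of days 1, 2 and 4 of RA served as separate measurements of auxin against DMSO at later times. Auxin at 0 h was not analysed here, and the sources used here do not give the order in which auxin and RA were added.

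DPY30 is a small subunit shared by the SET1 and MLL complexes, the enzymes that methylate lysine 4 of histone H3, and H3K4me3 marks the promoters of active genes. RA enters the nucleus, binds RAR–RXR heterodimers that sit on response elements in DNA, and turns on genes within hours. Its early targets include Cyp26a1 and Dhrs3, which lower RA, its receptor Rarb, and the Hox genes, which are switched on from the 3′ end of each cluster and give cells a position along the body axis. In the same hours mES cells begin to leave the naive pluripotent state. Comparing auxin with DMSO at 8 h asks how much of this early programme was reached without DPY30.

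The elements that RA receptors use are shown for the 2 RA targets whose promoter windows held one. The search covered RefSeq promoter windows on GRCm38.p6, from 250 bases before to 50 bases after the start of transcription, for a half-site GGTCA or GTTCA, 6 bases of any kind and a second half-site GGTCA or GTTCA, on either strand. Of all 32851 windows, 81 held a match (0.247%). Of 78 windows of 51 retinoid, Hox, other RA-responsive and reference genes, 2 did (2.56%), and no match was found in 91 windows of 66 genes past the adjusted p described below. The half-sites are in capitals, and 7 flanking bases stand on each side.
Cyp26a1, chr19:37697769-37697798, strand opposite to the gene: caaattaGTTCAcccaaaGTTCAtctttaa
Rarb, chr14:16575506-16575535, strand of the gene: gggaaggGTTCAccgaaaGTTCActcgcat
A match describes these letters only. Cyp26a1 levels are given below, and Rarb had only 3 and 8 reads with DMSO and 6 and 4 reads with auxin.

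Between 1914037 and 2382599 reads were counted per library at 8 h, and 31.5% to 33.1% of them had mapped to more than 1 place. Counts were summed per gene, scaled to CPM (counts per megaread, with TMM factors) and tested by the quasi-likelihood method of edgeR, all RA groups sharing a single fit. Of 11415 genes tested, 9037 averaged 10 reads or more over the 4 libraries. The median standard error of a log2 fold change was 0.22 for these genes and 0.17 for the 5544 genes with at least 50 reads. Nothing in the labels says that replicates came from separate cultures, so p-values measure the spread between replicate libraries. That spread was estimated over all RA groups and not from the 4 libraries at 8 h alone. Between replicate libraries, the chi-square per degree of freedom was 6.676 for auxin day 6, against 1.871 for auxin and 1.558 for DMSO at 8 h. The marker sums that follow are in CPM without TMM factors, unlike the levels of single genes. The 5 mES cell markers (Pou5f1, Sox2, Nanog, Zfp42 and Dppa5a) summed to 5200 to 5420 CPM at 0 h, 5470 to 5670 CPM with DMSO at 8 h and 4760 to 4820 CPM with auxin at 8 h. Primitive endoderm markers summed to at most 24.0 CPM, neural markers to at most 63.7 CPM, trophectoderm markers to at most 22.6 CPM and mesoderm markers to at most 15.7 CPM at 8 h, with ranges that overlapped between auxin and DMSO, and the neural marker Neurog1 had no read. The 7 fibroblast markers summed to 10.4 to 11.8 CPM with DMSO and 6.12 to 7.83 CPM with auxin, and Col3a1, Dcn, Lum and Postn had no read. In bulk RNA, fewer cells of a kind and less RNA per cell cannot be told apart.

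Dpy30 RNA itself was 93.7 and 115 CPM with DMSO and 96.2 and 83.2 CPM with auxin. The groups overlapped, with a log2 fold change of −0.22 ± 0.14 (SE, n = 2 per group, edgeR adjusted p = 0.627). The degron removes the protein after translation, so the RNA level does not check the labels.

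Few RNAs differed between auxin and DMSO at 8 h of RA, and most that did were lower with auxin. At an adjusted p below 0.05 (Benjamini-Hochberg over all genes tested) and a log2 fold change past 1, 16 genes were lower (0.14% of those tested) and 2 were higher (0.0175%). The lower genes were Pmp22, Gdf3, Trim56, Aurkc, Fez1, Elavl3, Lefty1, Hoxa5, Zfp518a, Zscan10, Slc4a5, Col13a1, Bbs2, Lefty2, Mymx and Steap3, and the higher genes were Mindy2 and Ing2. Without the fold threshold, 81 genes were lower (0.71%) and 6 were higher (0.0526%), so that most changes were smaller than 2-fold. These counts moved to 41 lower and 29 higher without TMM factors and to 294 and 104 in a fit of the 4 libraries at 8 h alone. They were 23 and 1 without auxin replicate 1, 19 and 2 without auxin replicate 2, 31 and 2 without DMSO replicate 1 and 24 and 2 without DMSO replicate 2. The split between lower and higher calls depended on the scaling, and library sizes without TMM factors gave 10 lower and 5 higher genes. Calls also depended on single libraries, with 7 lower and 0 higher without auxin replicate 1, 7 and 2 without auxin replicate 2, 12 and 1 without DMSO replicate 1 and 8 and 0 without DMSO replicate 2. A fit of the 4 libraries at 8 h alone called 31 lower and 14 higher genes, among them all 18 of the fit of all groups.

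**Figure D1:**
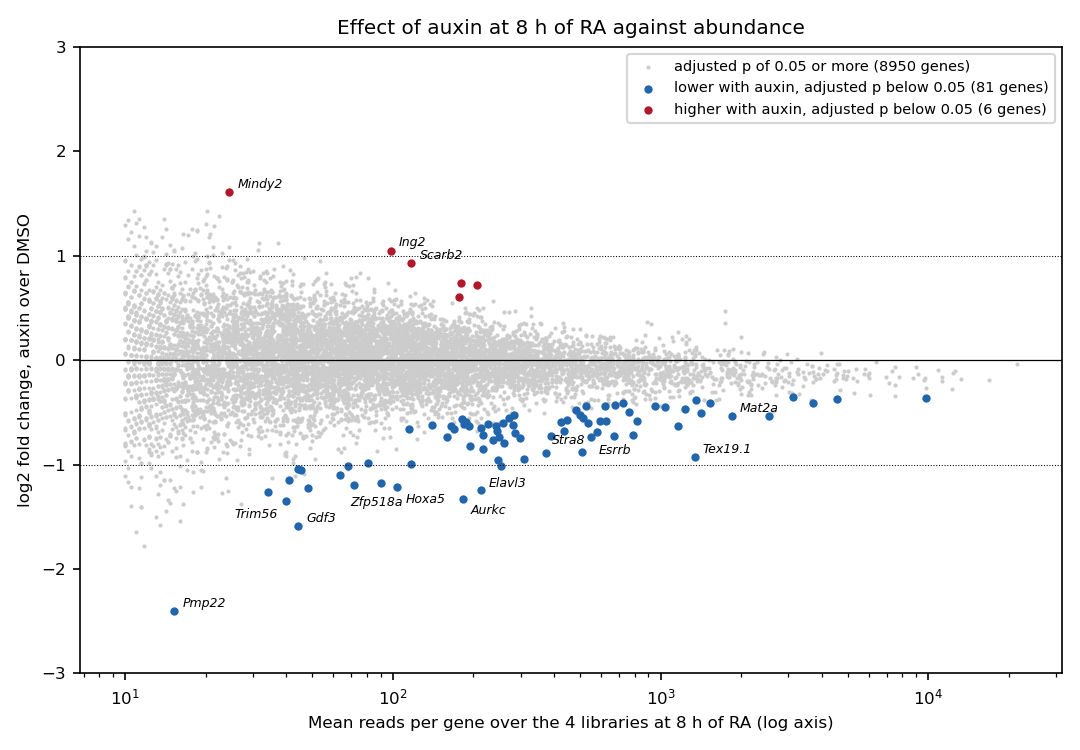
Log2 fold change of auxin over DMSO at 8 h of RA (y axis) against the mean number of reads per gene over the 4 libraries (x axis, log scale) for the 9037 genes that averaged 10 reads or more, with dotted lines at −1 and 1 and some genes named. The 81 genes lower with auxin (blue) run from Pmp22 at 15.2 reads to Ppia at 9796 reads, the 6 higher genes (red) lie between Mindy2 at 24.5 and Tgif2 at 206 reads, and the grey cloud bends below 0 at the right.

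Abundant RNAs had lower log2 fold changes than other RNAs. The median log2 fold change was 0.03 for 2191 genes with a mean of 10 to 30 reads, 0.03 for 3166 genes with 30 to 100, 0.00 for 2280 genes with 100 to 300, −0.05 for 1013 genes with 300 to 1000 and −0.13 for 387 genes with at least 1000. In the last of these classes 85.0% of the genes lay below 0. Without TMM factors its median was −0.04 with 65.1% of the genes below 0, against a median of 0.08 and 38.5% over all 9037 genes. The share of genes past the adjusted p and lower was 0.0456% in the first class and 3.36% in the last, where counts are also more precise. Small decreases of abundant RNAs, such as the log2 change of −0.37 for Ppia, a cyclophilin, therefore stand beside a shift of their whole abundance class.

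Hoxa5 was the only one of 24 tested members of the Hox list whose RNA passed the test, beside 0.71% lower over all genes tested. It encodes a homeodomain protein of the fifth paralogue group, and its counted 3′ end lies at chr6:52201754-52202580 on the minus strand (GRCm38). Hoxa5 had 1 and 0 reads at 0 h, 132 and 152 reads with DMSO and 74 and 56 reads with auxin at 8 h. In scaled values it was 77.8 and 72.9 CPM with DMSO and 36.7 and 28.1 CPM with auxin. It thus came on in both groups, the auxin libraries lay below both DMSO libraries, and the fitted level was 56.9% lower (log2 fold change −1.21 ± 0.17 SE, edgeR adjusted p = 0.000228). The call was kept in each of the 4 fits that left out 1 library.

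The neighbours of Hoxa5 and the other Hox genes that were higher at 8 h than at 0 h did not pass the test. Of 29 Hox and cofactor genes listed, 24 were tested and 17 averaged 10 reads or more at 8 h. Their median log2 fold change was −0.13, with 12 below 0 and 5 above, against −0.01 over all 9037 genes. Hoxa3 was 20.6 and 21.1 CPM with DMSO and 19.3 and 22.6 CPM with auxin (0.00 ± 0.22). The auxin values lay on both sides of the DMSO values. Hoxa4 was 15.3 and 13.4 CPM with DMSO and 7.94 and 9.53 CPM with auxin (−0.71 ± 0.35, adjusted p = 0.473), a separation that these counts of 16 to 28 reads could not establish. Hoxa7 lay at 21.8 and 24.0 CPM with DMSO and 18.3 and 23.6 CPM with auxin.

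In the Hoxb cluster, Hoxb1, the 3′-most gene, had 15 and 11 reads with DMSO and 23 and 25 reads with auxin. Its log2 fold change of 0.79 ± 0.29 did not pass the adjusted p (0.338). Hoxb4 was 24.8 and 31.2 CPM with DMSO and 23.3 and 20.1 CPM with auxin (−0.38 ± 0.25). Hoxb5, at 0 reads in both 0 h libraries, was 16.5 and 19.2 CPM with DMSO and 15.4 and 15.0 CPM with auxin. Its level at 8 h was at least 26.2-fold higher than at 0 h with DMSO and at least 22.3-fold higher with auxin, taking 3 reads over both 0 h libraries as the floor. Hoxb7 was 11.8 and 11.5 CPM with DMSO and 4.96 and 7.02 CPM with auxin (−0.95 ± 0.43, adjusted p = 0.421).

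Counted against the 0 h libraries, 14 of the 24 tested Hox and cofactor genes were called higher at 8 h with DMSO and 14 with auxin. Over all genes tested, 3.5% were called higher with DMSO and 3.81% with auxin in these comparisons, which share the 0 h libraries. Cdx1, a homeobox gene that RA induces directly, had 6 and 8 reads at 0 h. It rose to 99.6 and 82.0 CPM with DMSO and 79.4 and 90.3 CPM with auxin. The auxin effect was −0.09 ± 0.17 (adjusted p = 0.901). Meis2, a Hox cofactor, was 18.3 and 12.0 CPM with DMSO and 21.8 and 23.6 CPM with auxin (0.61 ± 0.25, adjusted p = 0.346).

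**Figure D2:**
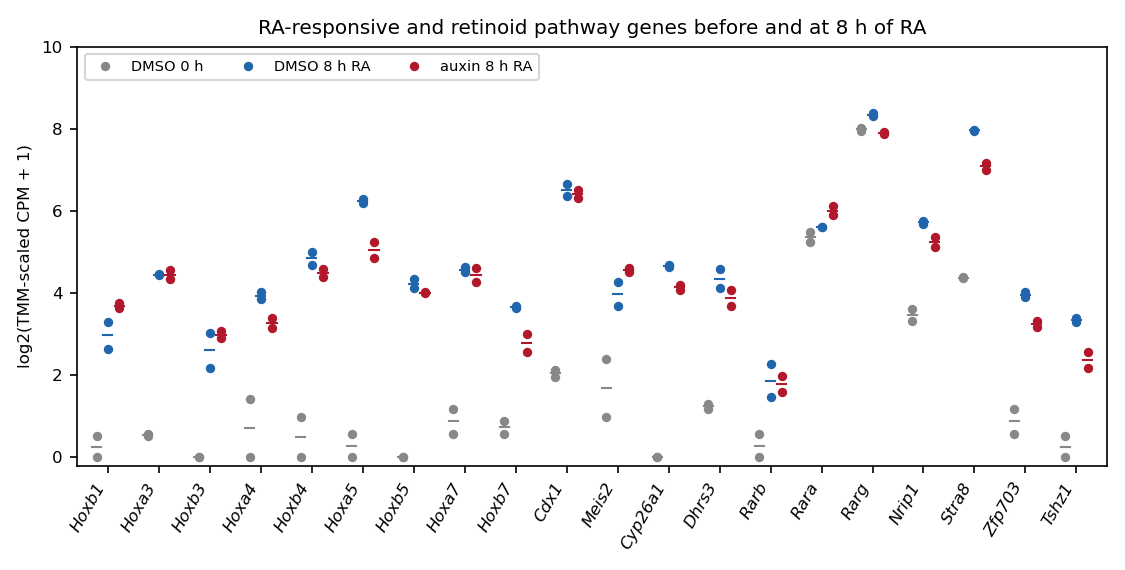
Levels of 20 Hox, retinoid and other RA-responsive genes as log2(TMM-scaled CPM + 1) (y axis) in each library at 0 h with DMSO (grey), at 8 h of RA with DMSO (blue) and at 8 h of RA with auxin (red), with short lines at the group means. Red and blue points overlap in Hoxa3, Hoxb3, Hoxa7, Cdx1 and Rarb. In the other genes red lies apart from blue, above it in Hoxb1, Meis2 and Rara and below it in the rest. Hoxa5 and Stra8 are the 2 genes shown that passed the test. They were at 28.1 and 36.7 CPM against 72.9 and 77.8 CPM and at 127 and 144 CPM against 248 and 253 CPM.

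No gene of the retinoid pathway list passed the test, at shares of 0.71% lower and 0.0526% higher over all genes tested. Of 27 genes listed, 26 were tested, and the 18 that averaged 10 reads or more had a median log2 fold change of −0.05, with 10 below 0 and 8 above. Cyp26a1, the enzyme that oxidizes and clears RA, had no read at 0 h, 24.8 and 24.0 CPM with DMSO and 17.4 and 16.0 CPM with auxin. Both auxin libraries were below both DMSO libraries, but the log2 fold change of −0.54 ± 0.35 on 32 to 50 reads was not past the test (adjusted p = 0.62). Against the same floor, Cyp26a1 was at least 35.8-fold higher than at 0 h with DMSO and at least 24.5-fold higher with auxin. Dhrs3, a reductase that turns retinal back into retinol, was 16.5 and 23.0 CPM with DMSO and 15.9 and 12.0 CPM with auxin (−0.52 ± 0.25, adjusted p = 0.467).

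Of the receptors and their partners, Rarg was 317 and 335 CPM with DMSO and 234 and 241 CPM with auxin. Its log2 fold change of −0.46 ± 0.12 lay just outside the threshold (adjusted p = 0.0588). Rara was 48.3 and 48.0 CPM with DMSO and 59.0 and 68.7 CPM with auxin (0.41 ± 0.22). Nrip1, a corepressor that RA induces, was 53.6 and 50.8 CPM with DMSO and 40.2 and 34.1 CPM with auxin (−0.49 ± 0.17, adjusted p = 0.217). Crabp2, a carrier of RA, had at most 2 reads in any library at 8 h and is not read further.

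Stra8, a gene named for its induction by RA and needed for entry into meiosis, was the only one of 17 tested genes on the list of other RA-responsive genes that passed, beside 0.71% lower over all genes tested. Stra8 was 19.9 and 19.6 CPM at 0 h, 248 and 253 CPM with DMSO and 144 and 127 CPM with auxin. Its level with auxin was 45.9% lower than with DMSO (−0.89 ± 0.12 SE, edgeR adjusted p = 0.000109), and both auxin libraries stayed above both 0 h libraries. Zfp703 was 15.3 and 13.9 CPM with DMSO and 8.93 and 8.02 CPM with auxin (−0.78 ± 0.29, adjusted p = 0.285), and Tshz1 8.84 and 9.59 CPM against 4.96 and 3.51 CPM (−1.11 ± 0.43, adjusted p = 0.296). These last 2 separated the groups on 7 to 29 reads and did not pass.

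Several called genes had risen between 0 h and 8 h in the control cells. Aurkc, a kinase of the chromosomal passenger complex best known from meiosis, was 4.37 and 4.25 CPM at 0 h, 129 and 142 CPM with DMSO and 55.5 and 52.2 CPM with auxin at 8 h. The level was 60.2% lower with auxin (−1.33 ± 0.16 SE, edgeR adjusted p = 6.9e-05), and 45.5% of its reads had mapped to more than 1 place. Pmp22, a myelin protein, had 3 and 1 reads at 0 h, 23 and 28 with DMSO and 2 and 8 with auxin. Its log2 fold change of −2.40 ± 0.47 (adjusted p = 0.00935) was the largest among the calls, but it moved to −1.73 without auxin replicate 1 and to −3.68 without auxin replicate 2, and only the latter of the 4 fits without a library kept the call. Lefty1 rose from 7.29 and 7.23 CPM to 32.4 and 37.4 CPM with DMSO and was 17.9 and 12.0 CPM with auxin. Steap3, a metalloreductase, was 17.5 and 14.9 CPM at 0 h, 48.3 and 46.5 CPM with DMSO and 23.3 and 23.6 CPM with auxin (−1.01 ± 0.22, adjusted p = 0.0207).

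To read the RA response without reusing the 8 h libraries, genes were also grouped by DMSO day 1 against 0 h. Of 1824 genes called higher with DMSO on day 1, 20 were lower with auxin at 8 h (1.10%) and 2 were higher (0.11%), past the adjusted p. Of 1532 genes called lower on day 1, 21 were lower with auxin (1.37%) and none was higher. In the 8059 other genes these shares were 0.496% and 0.0496%. Only 1091 of the 1824 genes averaged 10 reads or more at 8 h, against 1418 of the 1532 and 6528 of the 8059. Genes with fewer reads had little power to pass, so these shares do not rank the sets. Among members that averaged 10 reads or more, median log2 fold changes were 0.00 for 1091 induced genes, −0.06 for 1418 repressed genes and 0.00 for 6528 others, with quartiles of −0.26 and 0.26, −0.23 and 0.15, and −0.17 and 0.19. The day 1 calls themselves took in 16.0% of all genes tested as higher and 13.4% as lower.

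Genes of the naive pluripotent state were lower in part. Of 29 genes on that list, 28 were tested, and Gdf3, Esrrb and Dppa2 passed the adjusted p, all lower, with Gdf3 past the fold threshold. Over all genes tested 0.71% passed and were lower. Over the 27 that averaged 10 reads or more the median was −0.27, with 20 below 0 and 7 above, against 4637 below 0 and 4400 above over all 9037 genes. Gdf3, a TGFβ-family ligand of pluripotent cells, was 41.8 and 26.8 CPM at 0 h, 34.2 and 35 CPM with DMSO and 12.4 and 10.5 CPM with auxin. This was 66.7% lower (−1.59 ± 0.29 SE, edgeR adjusted p = 0.00354), and the DMSO values at 8 h lay between those of 0 h. The call of Gdf3 was kept in 1 of the 4 fits that left out 1 library (adjusted p from 0.0334 to 0.129). Esrrb, an orphan nuclear receptor of the naive network, was 704 and 728 CPM at 0 h, fell to 360 and 349 CPM with DMSO and was 221 and 205 CPM with auxin. The auxin libraries lay below the DMSO libraries, which lay below those of 0 h (−0.73 ± 0.11 SE, edgeR adjusted p = 0.000335). Dppa2, at 124 and 125 CPM at 0 h and 360 and 377 CPM with DMSO at 8 h, was 238 and 219 CPM with auxin (−0.69 ± 0.11, adjusted p = 0.00139), on reads of which 53.2% had mapped to more than 1 place.

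Of the core factors, Pou5f1 was 2000 and 2230 CPM with DMSO and 1630 and 1620 CPM with auxin (−0.38 ± 0.11, adjusted p = 0.11). Nanog was 525 and 497 CPM with DMSO and 362 and 426 CPM with auxin (−0.38 ± 0.14, adjusted p = 0.286). Sox2 was higher in both auxin libraries, at 481 and 486 CPM against 389 and 428 CPM (0.24 ± 0.10, adjusted p = 0.321). Klf4 was 191 and 222 CPM with DMSO and 161 and 182 CPM with auxin, and Zfp42 was 268 and 289 CPM against 193 and 215 CPM. None of these 5 passed in the fit of all groups. In the fit of the 4 libraries at 8 h alone, Pou5f1, Nanog and Zfp42 did, with log2 fold changes of −0.38, −0.37 and −0.45. All 3 also passed in the fit of the 0 h and 8 h libraries, Pou5f1 and Zfp42 with no filter on low counts, and Pou5f1 with DESeq2. Reads mapped to more than 1 place made up all of the Pou5f1 reads, 84.1% of those of Zfp42, 48.8% of Klf4 and 34.4% of Nanog, and with reads mapped to 1 place the log2 fold change of Zfp42 was −0.10 and that of Nanog −0.43.

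Nodal signalling feeds back on itself through its antagonists Lefty1 and Lefty2 and its co-receptor Tdgf1. All 3 were lower with auxin, and the other 11 tested genes of the Nodal and BMP feedback list were not past the adjusted p, beside 0.71% of all genes that were lower. Lefty1 had a log2 fold change of −1.23 ± 0.21 (adjusted p = 0.00253). It ran from −1.54 to −0.97 when 1 of the 8 h libraries was left out, and its call depended on which one. Lefty2 was 31.8 and 30.2 CPM with DMSO and 16.4 and 13.5 CPM with auxin (−1.05 ± 0.25, adjusted p = 0.0439). The genes are close paralogues, 28.2% of the Lefty2 reads had mapped to more than 1 place, and without these the log2 fold change was −1.02 and no longer past the adjusted p. Tdgf1 was 512 and 497 CPM with DMSO and 345 and 328 CPM with auxin (−0.58 ± 0.12, adjusted p = 0.0101). Nodal itself was 102 and 97.4 CPM with DMSO and 90.8 and 106 CPM with auxin (−0.02 ± 0.14, adjusted p = 1). The median of the list was −0.05 over 12 genes.

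**Figure D3:**
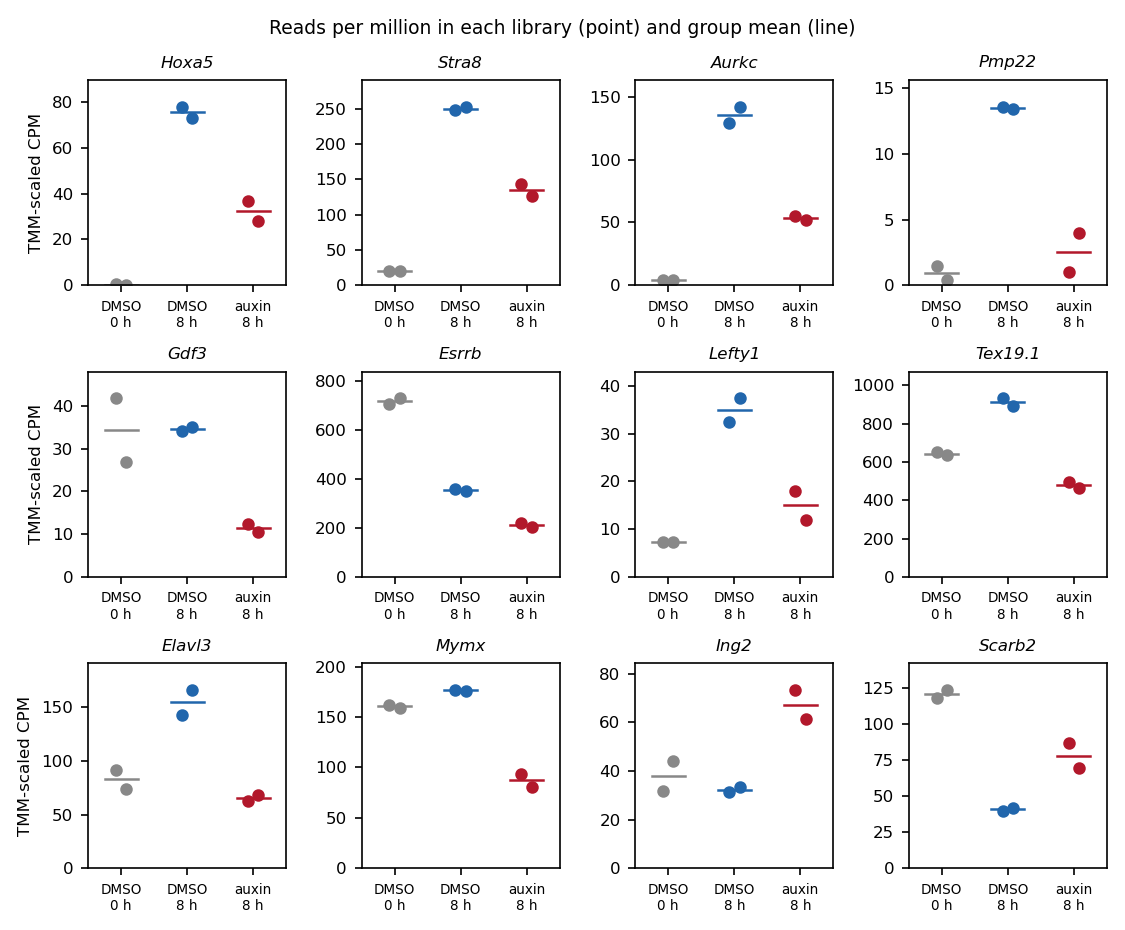
TMM-scaled CPM (y axes, from 0) of 12 genes in each of 2 libraries per group (points), with the group mean (line), at 0 h with DMSO, at 8 h of RA with DMSO and at 8 h of RA with auxin. In Hoxa5, Stra8, Aurkc and Lefty1 the auxin points lie between the levels before and after RA, in Gdf3, Esrrb, Tex19.1, Elavl3 and Mymx they lie below both, and Ing2 and Scarb2 are higher with auxin than with DMSO at 8 h.

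Tex19.1, Dmrt1 and Rpl10l are named after their values were seen, and Zscan10 by the naming rule. Tex19.1, a protein of germ and mES cells that restrains transposons, was 932 and 891 CPM with DMSO and 495 and 463 CPM with auxin (−0.93 ± 0.12 SE, edgeR adjusted p = 8.8e-05). Dmrt1, a transcription factor of the testis, was 241 and 260 CPM with DMSO and 149 and 154 CPM with auxin (−0.73 ± 0.12). Rpl10l, a testis copy of a ribosomal protein gene, was 193 and 224 CPM with DMSO and 108 and 110 CPM with auxin (−0.95 ± 0.12), on reads of which 19.7% were multimapped. Zscan10, a zinc finger factor of mES cells, was 65.4 and 64.3 CPM with DMSO and 32.2 and 25.1 CPM with auxin (−1.18 ± 0.19, adjusted p = 0.00139).

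Among called genes outside the lists, Elavl3, a neuronal RNA-binding protein, was 143 and 166 CPM with DMSO and 63.0 and 68.2 CPM with auxin. It had been 91.4 and 74.0 CPM at 0 h, so that the auxin libraries lay below the 0 h libraries too (−1.24 ± 0.17 SE, edgeR adjusted p = 0.000168). Its call was kept in all 4 fits that left out 1 library, as were those of Aurkc and Hoxa5. Mymx, a membrane fusion micropeptide of muscle, was 177 and 176 CPM with DMSO and 93.7 and 80.7 CPM with auxin (−1.02 ± 0.17, adjusted p = 0.00144). Zfp518a was 54.8 and 49.4 CPM against 19.8 and 25.6 CPM, and Trim56, a ubiquitin ligase, 31.8 and 28.3 CPM against 11.9 and 11.5 CPM. Fez1, a kinesin adaptor, was 25.9 and 24.5 CPM against 7.94 and 13 CPM. Fez1, Trim56, Steap3, Col13a1, Slc4a5, Lefty2 and Ing2 were called in none of the 4 fits that left out 1 library.

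Increases were few. Mindy2, a deubiquitinase, had 12 and 11 reads with DMSO and 42 and 33 reads with auxin (1.61 ± 0.31, adjusted p = 0.00655), and its 10 to 11 reads at 0 h were near the DMSO level. Its log2 fold change ran from 1.38 to 1.8 when 1 of the 8 h libraries was left out, and its call depended on which one. Ing2, which binds H3K4me3 through its PHD finger and belongs to a histone deacetylase complex, was 31.2 and 33.6 CPM with DMSO and 73.4 and 61.2 CPM with auxin (1.05 ± 0.21, adjusted p = 0.0132). Scarb2, a lysosomal membrane protein, had dropped between 0 h and 8 h from 118 and 124 CPM to 40.1 and 41.7 CPM. It was 86.8 and 69.7 CPM with auxin, between the other groups (0.93 ± 0.15, adjusted p = 0.00144). Ppp3ca, the catalytic subunit of calcineurin, Tgif2, a corepressor of SMAD signalling, and Fnbp1l had log2 fold changes of 0.74, 0.72 and 0.61.

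Single genes passed in lists of methionine metabolism, chaperones, DNA replication and hypoxia. Mat2a, which makes the methyl donor S-adenosylmethionine, was 1130 and 1120 CPM with DMSO and 817 and 739 CPM with auxin (−0.53 ± 0.11, adjusted p = 0.0135). The other 16 tested genes of the methionine and polyamine list did not pass, and the median of the list was −0.04. In the heat shock list, Hsph1 (−0.60 ± 0.14) and Hspd1 (−0.41 ± 0.08) were 2 of 19 tested genes that passed, and the median over 17 genes was −0.28, with 14 below 0 and 3 above. Of all genes tested 0.71% were lower past the adjusted p, and 51.3% of the 9037 genes lay below 0. In the list of DNA replication and G1/S genes, Ccnd2, a D-type cyclin (−0.74 ± 0.12), and Uhrf1, which maintains DNA methylation (−0.58 ± 0.10), were 2 of 35, with a median of −0.15 and 31 of 35 below 0. Ldha and Fam162a were 2 of 31 tested hypoxia-responsive genes that passed, both lower, while Ndrg1 from the same list had 6 and 6 reads with DMSO and 18 and 14 with auxin (1.31 ± 0.48, adjusted p = 0.274). Bnip3 was 120 and 131 CPM with DMSO and 148 and 140 CPM with auxin (0.20 ± 0.15, adjusted p = 0.677), on reads of which 69.4% were multimapped, and Actb was 3830 and 4050 CPM against 3470 and 3280 CPM (−0.22 ± 0.10, adjusted p = 0.428). In the fit of the 4 libraries at 8 h alone Actb passed, at −0.22. Hsph1 averaged 537 reads and Hspd1 3705 reads, in abundance classes whose medians were −0.05 and −0.13. Multimapped reads made up 83.4% of the reads of Hspd1, 55.2% of Uhrf1, 45.4% of Ldha and 43.7% of Mat2a.

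**Figure D4:**
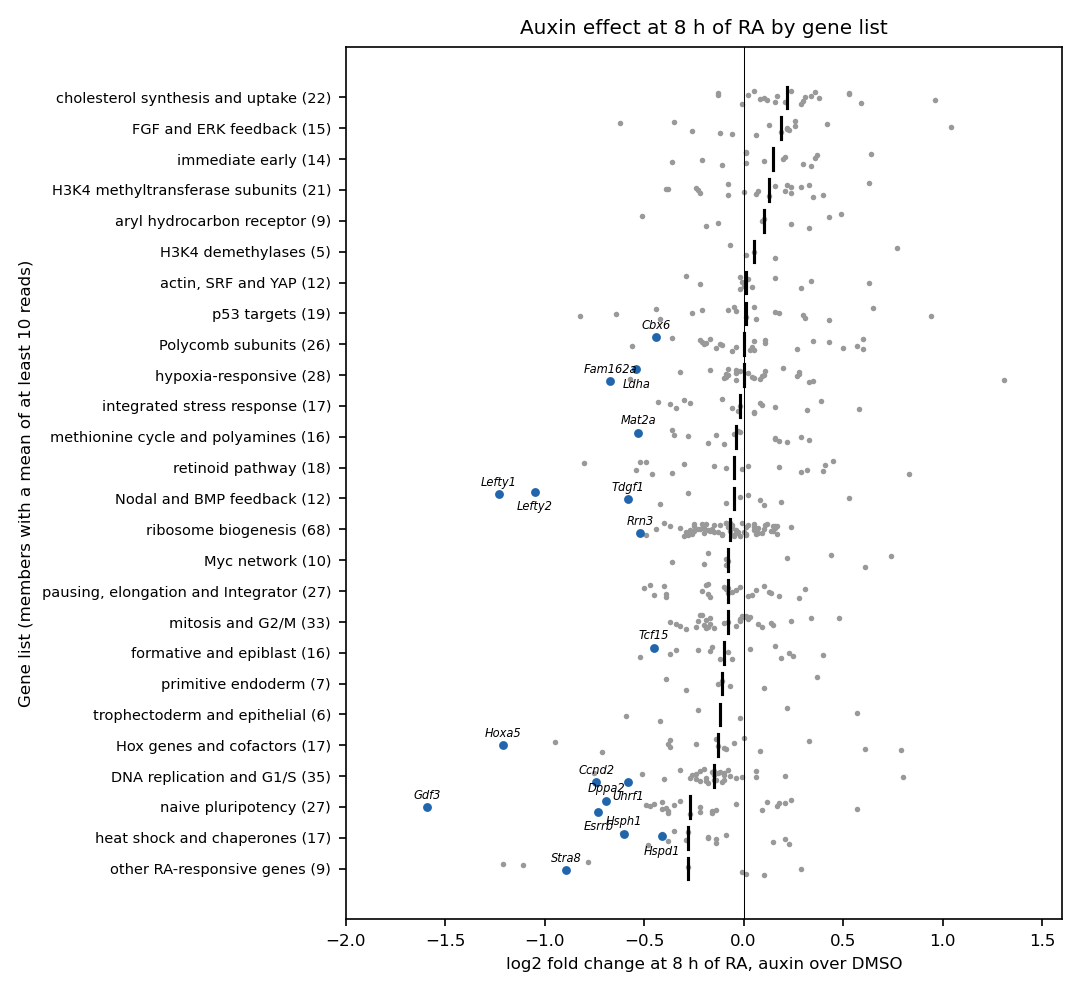
Log2 fold change of auxin over DMSO at 8 h of RA (x axis) for each member (point) of 26 gene lists, restricted to members that averaged 10 reads or more (number in brackets), with the list median as a vertical bar and genes past the adjusted p in blue and named. Every blue point lies below 0, and list medians run from −0.28 to 0.22.

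Whether the 8 h decreases persisted was read from auxin and DMSO libraries of days 1, 2 and 4, none of which entered the 8 h contrast. These days differ from 8 h in the length of treatment. The paper reports that mono- and dimethylation of H3K4 fell later than H3K4me3 after DPY30 loss. Of the 16 genes called lower at 8 h, 13 were below 0 on day 1 and 8 were called lower again (1.38% of all genes tested were), against 5 on day 2 (1.88%) and 4 on day 4 (2.59%). None was called higher on day 1 (1.02% of all genes), none on day 2 (2.92%) and 3 on day 4 (4.66%). Of all 81 genes lower by the adjusted p alone, 30 were lower on day 1 (2.97% of all genes tested), 36 on day 2 (7.39%) and 37 on day 4 (10.4%). In the other direction there were 2 on day 1 (4.25%), 8 on day 2 (5.96%) and 13 on day 4 (7.78%).

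Hoxa5 stayed low, with log2 fold changes of −1.94, −2.61 and −1.96 on days 1, 2 and 4 (all adjusted p at most 1.74e-09). Mymx did as well, at −1.85, −1.66 and −1.90. Aurkc turned over, from −1.23 on day 1 to 0.76 on day 2 and 1.26 on day 4, each past the adjusted p. Stra8 was −1.04 on day 1 (adjusted p = 1.57e-07), −0.15 on day 2 and 0.44 on day 4. Gdf3 was −1.36 on day 1 (adjusted p = 0.00965) and −0.04 on day 2. Lefty2 was −0.30 on day 1 and −2.0 on day 2 (adjusted p = 1.01e-09).

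Elavl3, Lefty1 and Zscan10 were lower at 8 h and not on day 1, when their log2 fold changes were 0.21, 0.21 and 0.35. The difference between the 2 times, in which the 8 h values enter again, passed the test in each, at −1.45 (adjusted p = 0.00549), −1.43 (adjusted p = 0.00395) and −1.53 (adjusted p = 0.00805). For the other 13 genes called lower at 8 h the difference was not called. Over all genes, the auxin effect was lower at 8 h than on day 1 in 71 (0.622%) and higher in 48 (0.42%). The balance turned with the scaling, to 34 lower and 72 higher without TMM factors. DESeq2 gave 49 lower and 14 higher, and a fit of the 8 h and day 1 libraries alone gave 103 lower and 112 higher. Leaving out 1 of the 8 h libraries gave 30 to 50 lower, the fewest without DMSO replicate 2, and 17 to 27 higher, the fewest without DMSO replicate 1. Leaving out 1 of the day 1 libraries, a choice made after seeing the data, gave 28 to 45 lower and 14 to 26 higher, the fewest of both without auxin day 1 replicate 1.

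On day 1, 6 of the 24 tested genes of the Hox list were lower with auxin and 2 were higher at an adjusted p below 0.05, against 1 and 0 at 8 h. Over all genes tested these shares were 2.97% and 4.25% on day 1 and 0.71% and 0.0526% at 8 h. Hoxb4 moved from −0.38 to −1.17 (day 1 adjusted p = 0.00182), Hoxa3 from 0.00 to −0.61 (adjusted p = 0.0346) and Hoxb3 from 0.33 to −1.33 (adjusted p = 0.016), while Hoxb1 was 1.22 (adjusted p = 3.06e-05) and Meis2 1.57 (adjusted p = 7.33e-08). The difference between 8 h and day 1 did not pass the test for any of these 5 genes, with adjusted p from 0.084 for Meis2 to 0.687 for Hoxb1. Rarg changed sign, from −0.46 at 8 h to 0.51 on day 1, with a difference of −0.96 (adjusted p = 0.00395).

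**Figure D5:**
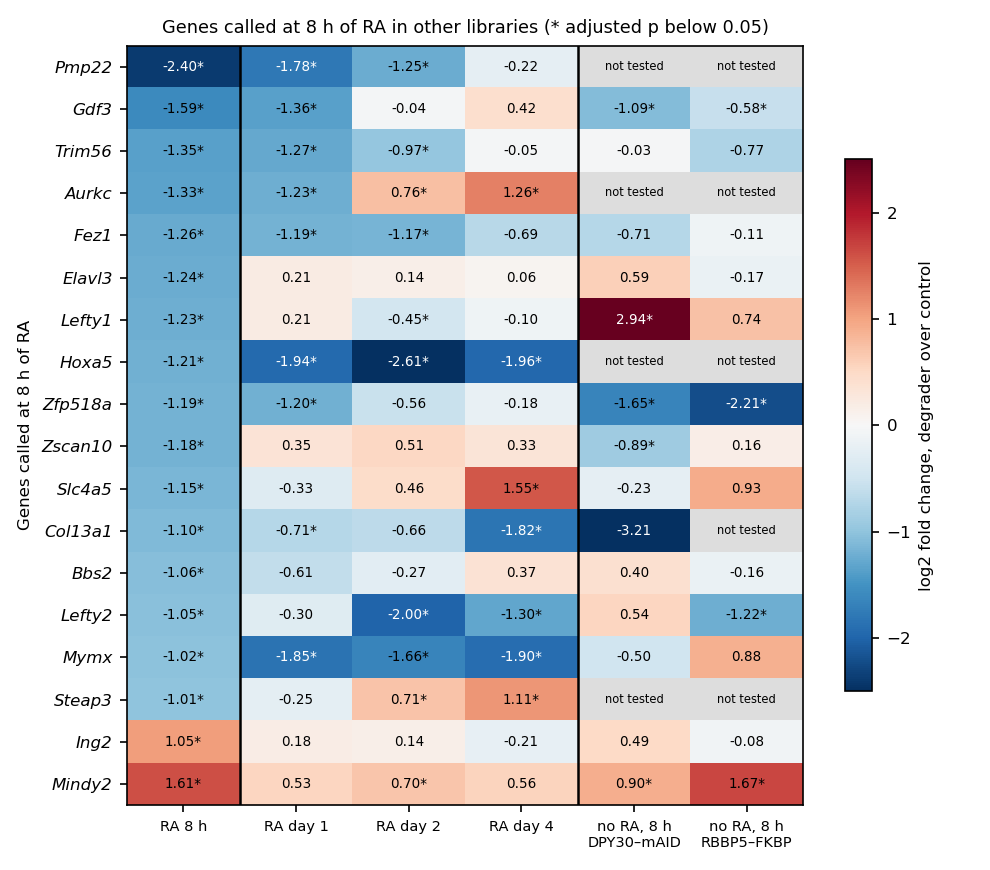
Log2 fold changes (numbers and colour) of the 18 genes called at 8 h of RA (rows) for auxin over DMSO after RA for 8 h or for 1, 2 or 4 days, and for total reads at 8 h against 0 h of ligand without RA in both degron lines (columns), with * for an adjusted p below 0.05. Blue extends over days 1 to 4 in Hoxa5 and Mymx, turns to red in Aurkc, Steap3 and Slc4a5, and is confined to 8 h of RA among the RA columns in Elavl3 and Zscan10.

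SLAM-seq libraries of cells kept without RA gave another view of the same genes, with 3 libraries per time point. There, DPY30–mAID cells received auxin and RBBP5–FKBP cells received dTAG-13 for 8 h, and each was compared with its own 0 h libraries. Total reads were used, without regard to label. Of the 81 genes lower at 8 h of RA, 77 were tested in DPY30–mAID cells without RA. There 63 were below 0, 34 were lower past the adjusted p (7.85% of all 9848 genes tested were) and 1 was higher (5.32%), with a median log2 fold change of −0.40 against 0.01 over the genes of both tables. Of 75 tested in RBBP5–FKBP cells, 56 were below 0, 22 were lower (4.97% of 9676) and 2 were higher (4.21%), with a median of −0.24.

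Differences between these cultures and lines were not tested. Without RA, Mat2a was −1.87 in the DPY30–mAID line and −1.24 in the RBBP5–FKBP line, and Zfp518a was −1.65 and −2.21, all 4 past the adjusted p. Tex19.1 was −2.22 in DPY30–mAID cells (adjusted p = 1.41e-15) and −0.28 in RBBP5–FKBP cells (adjusted p = 0.429), a difference that was not tested. Gdf3 was −1.09 and −0.58 and Esrrb −0.41 and 0.50, each past the adjusted p in its line. Lefty1 was 2.94 ± 1.03 in DPY30–mAID cells (edgeR adjusted p = 0.0479), opposite to its change at 8 h of RA. In RBBP5–FKBP cells Lefty1 was 0.74 ± 0.25 and did not pass (edgeR adjusted p = 0.0601). Hoxa5, Aurkc, Pmp22 and Steap3 had too few reads without RA to be tested in either line. Mindy2 was higher in both lines, at 0.90 and 1.67 (adjusted p = 0.0486 and 0.0369).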

How the data were processed

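RNA from auxin- and DMSO-treated DPY30–mAID cells was, per the labels, treated with iodoacetamide and made into QuantSeq 3′ FWD libraries. The authors deposited read counts per 3′ UTR interval (vM14 annotation, mm10), not normalized. The file headers name SlamDunk, whereas the study's methods name HISAT2 and featureCounts. Quantities computed here began with the sum of the deposited counts per gene (46420 intervals, 20177 genes). Genes that averaged 10 reads or more in any group were tested with edgeR 4.0.16 (R 4.3.3), TMM factors and one fit of 21 Quant-seq libraries, with the 2 identical DMSO day 6 libraries counted as 1 sample because they held the same values. SLAM-seq total reads were fitted per line. A gene was called past 1 on the log2 scale when its p, adjusted after Benjamini and Hochberg, was below 0.05. DESeq2 1.42.0, other scalings, filters and fits were alternatives, and the fits were tested on simulated data. Floors of 3 reads cover counting error only. Named genes were Dpy30, up to 10 calls per direction with a mean of at least 20 reads and no overlap, called list members, fixed reference genes, and 5 genes per direction of the 8 h against day 1 comparison. Other genes are named as list members or after their values were seen. Members and lists were chosen with earlier results of these data known. Pairing by replicate number was checked, since no label ties the numbers to a shared culture. Libraries of cells without Kdm5a and Kdm5b were not used here. Some members of these lists are not reported here by name.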

Additional observations from a re-analysis of the deposited data

Results flagged for a closer look

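The auxin effect differed between 8 h and day 1 of RA, by the edgeR test of the difference itself, in 71 genes that were lower at 8 h and 48 that were higher. Without TMM factors the counts were 34 and 72, and leaving out 1 of the 8 libraries of these times gave 28 to 50 and 14 to 27. Among genes called at 8 h, the difference was −1.45 for Elavl3, −1.43 for Lefty1 and −1.53 for Zscan10, each lower with auxin at 8 h and near the DMSO level on day 1.

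Of the genes named by size of the difference, 5 were lower at 8 h than on day 1. Dpysl3, a neuronal cytoskeletal protein, differed by −4.45, its 8 h reads being 8 and 8 for DMSO but 0 and 1 for auxin, so that its size depends on how near-zero counts are fitted. Tdrd12, a piRNA pathway protein, differed by −3.13 on 5 and 5 against 1 and 1 reads. Prdm14, a regulator of naive pluripotency and germ cells, differed by −2.95, with −0.47 at 8 h and 2.48 on day 1 (adjusted p = 0.0207). Gsta3 differed by −2.83 and Ralgapa2 by −2.52, with day 1 effects of 1.57 and 1.68.

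The 5 in the other direction were Dkk3 at 4.10, Hoxa9 at 3.92, Tradd at 2.96, Junb at 2.91 and Myl6b at 2.43. Junb, an AP-1 subunit, was 0.64 at 8 h and −2.27 on day 1 (adjusted p = 0.00161). Hoxa9 had 0 and 3 reads (DMSO) against 10 and 3 (auxin) at 8 h and was −1.97 on day 1 (adjusted p = 0.00908). None of these 10 genes passed the adjusted p at 8 h itself.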

How the results depend on the processing

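With 2 libraries per group, leaving out 1 of the 8 h libraries moved the 16 lower calls to between 7 and 12 and the 2 higher calls to between 0 and 2. The lone library of such a group was assumed to vary like the other groups. Of the 18 calls, Aurkc, Elavl3 and Hoxa5 were made in all 4 of these fits. The median ranged from −0.007 to 0.00. Genes lower at 8 h than on day 1 (71) ranged from 28 to 50 and those higher (48) from 14 to 27, with the day 1 libraries left out as well, which was chosen after seeing the data. Other scalings and filters gave 10 lower and 5 higher calls without TMM factors, 26 and 6 with no filter on low counts, 31 and 14 in the fit of the 4 libraries, and 28 and 11 in the fit of 0 h and 8 h libraries. DESeq2 gave 12 lower calls and 1 higher call, and 9 of the 18 calls had no adjusted p there. Unadjusted p gave 118 and 101, and dropping the fold threshold gave 81 and 6. For the difference between 8 h and day 1, library sizes without TMM gave 34 lower and 72 higher. The fit of 8 h and day 1 libraries gave 103 lower and 112 higher, and DESeq2 49 lower and 14 higher. Unadjusted p gave 255 and 305, and no fold threshold 212 and 74. The median was −0.017 with RLE factors and with DESeq2, 0.069 without TMM, −0.015 at a mean of at least 30 reads, −0.013 for reads mapped to 1 place and 0.006 in the fit of 0 h and 8 h libraries. The cause of these shifts was not tested. Replicate numbers did not pair the libraries (r = −0.0288 between the deviations of the 8 h groups over 6846 genes, and −0.317 to 0.435 over all pairs of RA groups), and the replicate block gave 16 lower and 2 higher calls at 8 h and 69 lower and 46 higher for the difference, with medians of −0.004. Of the 87 genes past the adjusted p, 47 kept it without TMM factors and 77 with reads mapped to 1 place, and none changed direction in the fits run.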

Other observations

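Of 21 tested subunits of the SET1 and MLL complexes, none passed, beside 0.71% of all genes tested that were lower and 0.0526% that were higher, and their median log2 fold change was 0.13 with a range of −0.39 to 0.63. Rbbp5 was 131 and 124 CPM with DMSO and 137 and 129 CPM with auxin, Wdr5 505 and 437 CPM against 548 and 542 CPM, and Ash2l 718 and 683 CPM against 591 and 598 CPM. The H3K4 demethylases Kdm5a and Kdm5b had log2 fold changes of 0.01 ± 0.21 and −0.07 ± 0.11. Cbx6 was 1 of 31 tested Polycomb genes that passed (−0.44 ± 0.10), and the list median was 0.00.

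Cholesterol synthesis and uptake had the highest median among the 26 lists with at least 5 members that averaged 10 reads or more. It was 0.22 over 22 genes, of which 19 lay above 0 and 3 below, and no member passed the adjusted p. Of all 9037 genes 48.7% lay above 0, and without TMM factors only 38.5% lay below 0. The FGF and ERK feedback list had a median of 0.19 over 15 genes and the immediate early list 0.15 over 14, also with no gene past the test. None of the 15 tested genes of the aryl hydrocarbon receptor list passed, with a median of 0.10 over 9 genes. Over all genes tested 0.71% passed lower and 0.0526% higher, shares at which lists of this size would mostly hold no such gene.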
